A study of Gallus gallus with 24 samples.

Results

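Gene expression in the left ventricle of chick embryos at embryonic day 8 (E8), 4 days after partial ligation of the left atrial appendage, was compared with that in the normal left ventricle of the same age. The comparison rests on 4 of the 24 arrays of the study, 2 for the ligated and 2 for the normal left ventricle, and was made over all 38439 probe sets that are not array controls. The study measured embryonic chick ventricles between E4 and E10 on a one-colour oligonucleotide array. Each condition was 1 pool of dissected tissue from 6 to 12 embryos, and its labelled RNA was divided over 2 arrays. The embryos of the ligated group were operated in ovo at day 4 and returned to the incubator. Those of the normal group were not operated, and no sham-operated pool was analysed here. The ligated and normal right ventricles at E8, 1 pool each, form the parallel comparison. The other 8 pools were both ventricles together at E4, E5 after conotruncal banding, E5 and E6, and the left and the right ventricle apart at E6 and at E10.

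Left atrial ligation narrows the inlet of the left ventricle, so that more of the venous blood passes through the right side of the heart. The operated left ventricle of the chick is known to grow small and the right ventricle large, and the procedure is used as a model of hypoplastic left heart. The embryonic ventricle at this age holds mainly cardiomyocytes, with endocardium, epicardium, cushion mesenchyme and blood in smaller amounts. HAND1 and TBX5 are transcription factors known from the left ventricle.

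Values are the deposited log2 expression values, which ran from 0.14 to 16.09 over the 24 arrays. The medians of the arrays were 4.10 and 4.11 in the ligated left ventricle and 4.07 and 4.08 in the normal left ventricle. Probe sets entered where at least 1 of the 12 pools averaged 4.09 or more, the 50th percentile of all values, which left 20335 probe sets. With 1 pool in each arm, the 4 arrays alone give no test between the conditions; a fit that borrows its error from the other pools is given last. A probe set was counted as different where the pool means differed by at least 1 on the log2 scale (2-fold) and the duplicate arrays of the pools did not overlap. In the left ventricle, no kept probe set with a 2-fold difference was left out through overlapping arrays. The typical SD between duplicate arrays was 0.137 in the ligated pool and 0.124 in the normal left pool. This SD measures the array step alone.

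Several pools stood apart from the rest. Markers of liver (ALB, TTR, FGB and APOA1) gave a summed level of 13.24 on the log2 scale in the ligated left pool, 12.28 in the ligated right pool and 12.34 in the E6 pool that held both ventricles, while the other normal pools lay between 10.66 and 11.36 and the banded pool was at 11.79. The E6 pool of both ventricles also differed from the 2 E6 pools of single ventricles. At least 2-fold differences in the same direction against both single pools were found in 233 probe sets that were lower in the single pools (1.15% of those kept) and 150 that were higher (0.738%). Array controls for actin, EF1A and GAPDH differed by at most 0.18 between the ligated and the normal left pool.

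The ligated left ventricle differed from the normal one in 853 kept probe sets (4.19%), of which 516 were higher (2.54%) and 337 lower (1.66%) after ligation. The difference was at least 4-fold in 75 of the higher and 58 of the lower probe sets. The widest increases were in genes of plasma proteins made by the liver. Increases were also found in genes of the extracellular matrix and of the Wnt pathway, and in a part of the mesenchymal markers. Among the widest decreases were ARAP2, PAK4, HAND1 and the light chain gene MYL6. The brightest contractile genes of cardiomyocytes did not meet the rule, and they lie near the top of the array's range. The median difference was 1.32 among the higher probe sets and -1.35 among the lower, and 0.00 over all those kept. Just past the threshold lay differences of 1.0003 and -1.0028, and 339 probe sets fell between 1.8-fold and 2-fold. Of the probe sets counted, 400 higher ones stood for 348 genes and 239 lower ones for 207 genes, and no gene was in both directions.

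**Figure D1:**
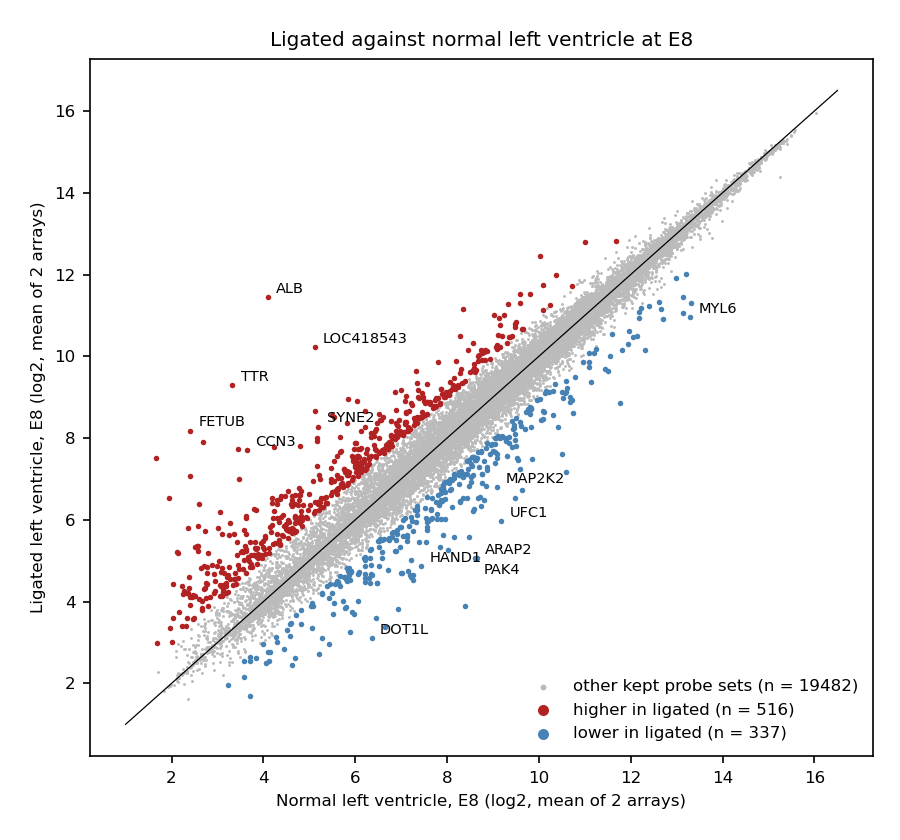
Mean log2 expression of each kept probe set in the ligated left ventricle (vertical axis) against the normal left ventricle (horizontal axis) at E8, each the mean of 2 technical arrays of 1 pool; red and blue points met the 2-fold rule and the line marks equal levels. ALB stands farthest above the line, at 11.45 in the ligated pool and 4.10 in the normal pool, and the brightest probe sets, above about 14, lie close to the line.

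Of the 15 genes with the widest increase, 9 encode plasma proteins that the liver secretes. ALB, the gene of albumin, read 11.41 and 11.48 on the ligated arrays, against 3.99 and 4.22 on the normal arrays. The arrays of the 2 pools are far apart, and the difference of 7.34 is a 163-fold one. TTR, which encodes a carrier of thyroid hormone, read 9.33 and 9.27 on the ligated arrays, against 3.27 and 3.37 on the normal arrays. The fibrinogen genes FGG and FGB followed, with differences of 5.21 and 4.29. FGG read 7.94 and 7.86 after ligation, against 2.65 and 2.73 in the normal ventricle. Its normal value lay below the filter level of 4.09, where the size of a difference depends on the floor of the array, and with all values below that level raised to it the difference was 3.81. Such a floor gave 4.09 in place of 5.78 for FETUB, a plasma protein of the fetuin family, and 2.98 in place of 4.67 for SPP2, a secreted phosphoprotein of plasma and bone.

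The others of the 9 were GC, SERPIND1 and RBP4A. GC, the gene of the vitamin D-binding protein, read 5.18 and 7.19 on the 2 ligated arrays, against 3.22 and 2.89 on the normal ones, so that its duplicates were more than 2-fold apart. Its difference of 3.12 became 4.29 with only the second arrays of both pools and 1.95 with only the first. SERPIND1, which encodes an inhibitor of thrombin, differed by 3.10, and RBP4A, a carrier of retinol, by 3.04. Both lay below the filter level in the normal ventricle. With that level as the floor the difference was 1.13 for SERPIND1 and 1.099 for RBP4A. For GC it was then 2.09. In tissue pools like these, more cells of a type and more RNA per cell cannot be told apart.

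A wider list of plasma protein genes, drawn up after these values were seen, had 25 kept probe sets, of which 20 were higher after ligation (80%, where 2.54% of all kept probe sets were) and none lower (1.66% of all), with a median difference of 2.67. These 20 probe sets stood for 17 genes. Many were kept because of the pools in which they are high, so that the count is a description. Among them, TF, which encodes the iron carrier transferrin, was at 11.16 after ligation, against 8.34 in the normal ventricle, while another of its probe sets differed by 0.32. APOB, a structural protein of lipoproteins, met the rule on 1 of 3 kept probe sets, which was at 5.74 in the ligated left ventricle and 2.74 in the normal one. APOA1, the apolipoprotein of high-density particles, was already bright, at 11.99 in the ligated pool and 10.37 in the normal pool. F10 and VTN, also on the list, differed by 0.43 and 0.94, less than the rule requires.

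These genes were high in another pool as well. In the E6 pool that held both ventricles, TTR was at 10.54, FETUB at 9.35, SPP2 at 9.40 and FGG at 9.01. In the left and right E6 pools FETUB was at 2.42 and 2.39, but TTR at 7.04 and 2.73. TTR was also at 7.71 in the banded E5 pool. The level of the E6 pool of both ventricles lay above that of the ligated left ventricle for 17 of the 20 plasma probe sets. ALB was one of the exceptions, at 9.07 in that E6 pool, and it was also at 7.61 in the normal left and 6.55 in the normal right ventricle at E10. Over all kept probe sets, 56 were at least 2-fold higher in the E6 pool of both ventricles than in the E5 pool and in both single E6 pools (0.275%), and 31 of the 516 higher ones were among them (6.01% of the 516 and 55.4% of the 56). The part of other tissue in these pools was not tested.

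Of the 6 other genes with the widest increases, 3 shared that pattern. AvBD10, which encodes an antimicrobial beta-defensin of birds, read 7.37 and 7.67 after ligation, against 1.67 and 1.66 in the normal left ventricle. It was at 9.30 in the E6 pool of both ventricles and between 1.64 and 1.83 in all pools but these. AvBD9, a second beta-defensin gene, and PRPS2, which encodes an enzyme of nucleotide synthesis, were at 6.22 and 7.71 in that E6 pool, and PRPS2 was also at 7.80 in the E4 pool. AvBD9 was at 5.79 and PRPS2 at 6.39 in the ligated left ventricle. Both lay below the filter level in the normal one, at 2.35 for AvBD9 and 2.60 for PRPS2. With the floor at that level the differences were 1.70 for AvBD9, 2.29 for PRPS2 and 3.43 for AvBD10.

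CCN3, SYNE2 and LOC418543 behaved differently. CCN3, which encodes a matricellular protein, read 7.67 and 7.73 on the ligated arrays and 3.67 and 3.62 on the normal arrays, and the normal pools of all ages lay between 3.65 and 6.88. The ligated left level was therefore above every normal pool. SYNE2, whose large protein joins the nucleus to the cytoskeleton, read 8.28 and 8.29 after ligation, against 5.31 and 5.08 on the normal arrays, and of the normal pools only the right E6 pool, at 8.22, came near it. LOC418543 read 10.23 on both ligated arrays and 4.98 and 5.25 on the normal ones, but its normal pools spread from 2.50 to 11.65.

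**Figure D2:**
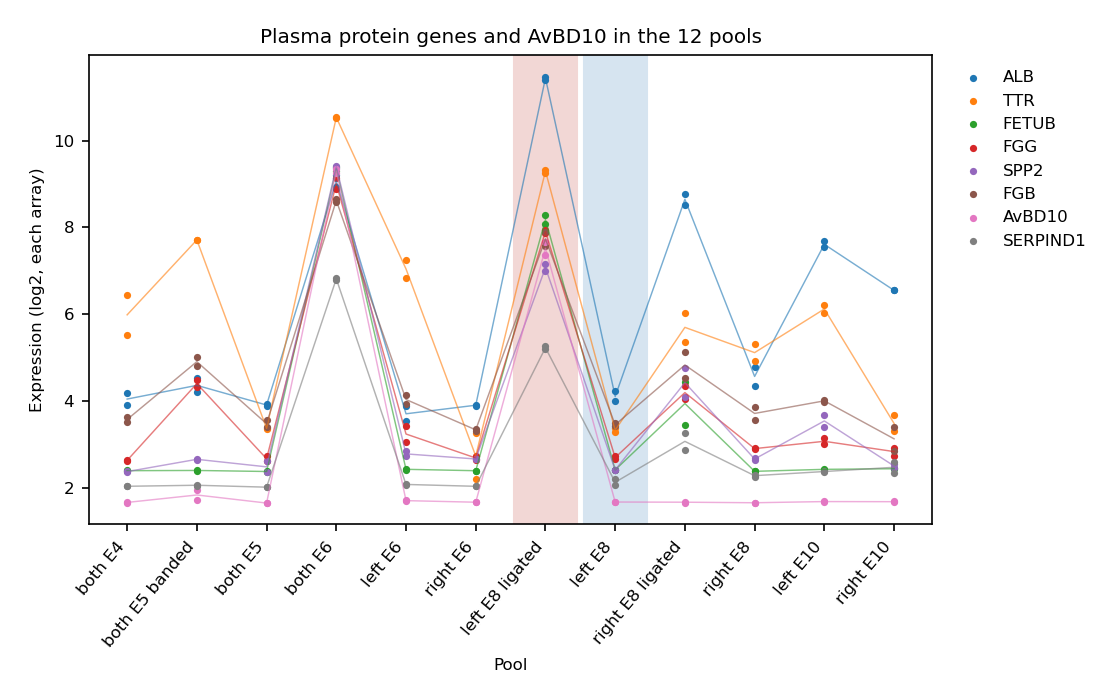
Log2 expression (vertical axis) of 7 plasma protein genes and AvBD10 on each array of the 12 pools; points are arrays, lines join pool means, and shading marks the ligated (red) and normal (blue) left ventricle at E8. The genes are high in the ligated left ventricle and in the E6 pool of both ventricles, where TTR reached 10.54, and low in most others. TTR was also at 7.71 in the banded E5 pool and 7.04 in the left E6 pool.

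Genes of the extracellular matrix were also higher. Of the 110 kept probe sets of the matrix list, 16 were higher after ligation (14.5%) and 2 lower (1.82%), where 2.54% and 1.66% of all kept probe sets were, and the median difference was 0.23. The 16 stood for 10 genes. FBLN5, an elastic fibre protein, read 8.70 and 8.62 on the ligated arrays, against 6.30 and 6.14 on the normal arrays, and its second probe set differed by 1.77. COL1A2, a chain of fibrillar type I collagen, read 11.22 and 11.35 after ligation, against 9.33 and 9.32 on the normal arrays, a 3.88-fold difference. No normal pool exceeded 9.60 for COL1A2. COL12A1, a collagen found along fibrils, was higher on 3 probe sets, by at least 1.31 on each, and COL8A1, a short-chain collagen of vessels and valves, by 2.03. ELN, the gene of elastin, was at 11.52 in the ligated left ventricle and 9.80 in the normal one. TIMP2, an inhibitor of matrix metalloproteinases, was lower by 1.24, and COL11A1 by 1.14. With only the first arrays COL11A1 differed by -0.91, short of the rule.

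Mesenchymal and smooth muscle markers were higher in part. PRRX1, a homeobox factor of mesenchyme, read 7.63 and 7.94 after ligation, against 4.30 and 4.17 on the normal arrays, and its second probe set differed by 2.98. TWIST1, another mesenchymal factor, differed by 1.07, and by 0.98 with only the first arrays. POSTN and VCAN, matrix genes of the cushions, differed by -0.20 to 0.11 over their 4 probe sets, and the summed level of the cushion list was 0.966 times the normal one. MYH11, the smooth muscle myosin, was at 6.77 in the ligated left ventricle and 4.78 in the normal one. The summed level of the smooth muscle list, which had only 2 kept probe sets, was 1.56 times the normal one.

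For 15 of the 16 higher matrix probe sets, and for PRRX1 and MYH11, the normal right ventricle was higher than the normal left one. The higher probe sets were chosen by their distance from the normal left E8 pool, which favours a low value there. This count and the like counts for the lists below are a description, given without a share over all kept probe sets. The ligated left ventricle lay above the normal right one for 7 of the 16. FBLN5 was at 9.001 in the normal right ventricle, PRRX1 at 7.23, MYH11 at 6.76 and COL1A2 at 9.55. After ligation the right ventricle was at 10.38 for FBLN5, 8.67 for PRRX1, 8.63 for MYH11 and 11.43 for COL1A2. Of the 16 matrix probe sets, 6 also met the 2-fold rule in the right ventricle, where 31.4% of all 516 higher probe sets did. In the ligated left, 3 of the 16 lay above every normal pool, where 33.9% of the 516 did.

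Of the 33 kept Wnt probe sets, 7 were higher (21.2%) and none lower, where 2.54% and 1.66% of all kept probe sets were. The 7 stood for the secreted factors RSPO3, WNT11 and WNT9A, the receptor gene FZD7 and the feedback target AXIN2. The median difference of the list was 0.12. RSPO3, a secreted enhancer of Wnt signalling, read 10.38 and 10.59 on the ligated arrays, against 8.37 and 8.20 on the normal arrays. WNT11, a ligand with a known part in heart formation, read 6.59 and 6.83 after ligation, against 4.50 and 4.598 on the normal arrays. FZD7 was higher on both of the probe sets counted, by 2.38 and 1.48, and AXIN2 by 1.12. With only the first arrays AXIN2 differed by 0.93, and with only the second arrays WNT9A differed by 0.9985, both short of the rule. RSPO3 and WNT11 differed by 0.13 and 0.39 in the right ventricle, where the normal level was already 10.82 for RSPO3 and 7.26 for WNT11. FZD7 met the rule on both sides of the heart. For 5 of the 7 higher Wnt probe sets the normal right ventricle was above the normal left one.

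In the BMP and TGF beta list, 5 of 47 kept probe sets were higher (10.6%) and 2 lower (4.26%), against 2.54% and 1.66% of all kept. The median of the list was 0.17. CHRDL1, a secreted BMP antagonist, was higher by 1.77, BMP5 by 1.497, and BMP2 by 1.32. The BMP5 difference was 0.588 with only the first arrays and 2.41 with only the second. BMP10, a growth factor of the trabeculae, read 12.77 and 12.88 after ligation, against 11.70 and 11.65 on the normal arrays. The ligated level of BMP10 stayed below the highest normal pool, at 13.41. None of the 5 higher probe sets of this list lay above every normal pool, and none met the rule in the right ventricle. Of all 516 higher probe sets, 33.9% and 31.4% did. For all 5 the normal right ventricle was above the normal left one. TGFB1 read 6.53 and 6.33 on the ligated arrays, against 8.25 and 8.29 on the normal ones, and BMP4 read 5.90 and 6.13 after ligation, against 7.56 and 7.74 on the normal arrays. Both lay below every normal pool. In the list of FGF, IGF and neuregulin genes, 5 of 42 were higher (11.9%, against 2.54% of all kept), with a median of 0.29. For 4 of these 5 the normal right ventricle was above the normal left one. IGFBP1, which binds insulin-like growth factors, read 6.90 and 6.51 after ligation, against 4.88 and 4.76 on the normal arrays, and FGFR3, an FGF receptor, was higher by 1.60. FGF13, which encodes an intracellular modulator of sodium channels, was higher on 3 probe sets by 1.02 to 1.43, of which one differed by 0.80 with only the first arrays. In the Notch list, HES5, a target gene of the pathway, was lower by 1.33. It was the only one of 23 kept probe sets to meet the rule (4.35%, against 1.66% of all kept). It lay below the filter level in both pools, at 2.76 after ligation and 4.0931 without it, and was kept through the left E10 pool, at 5.28. With the floor at the filter level HES5 differed by -0.11, which does not meet the rule.

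**Figure D3:**
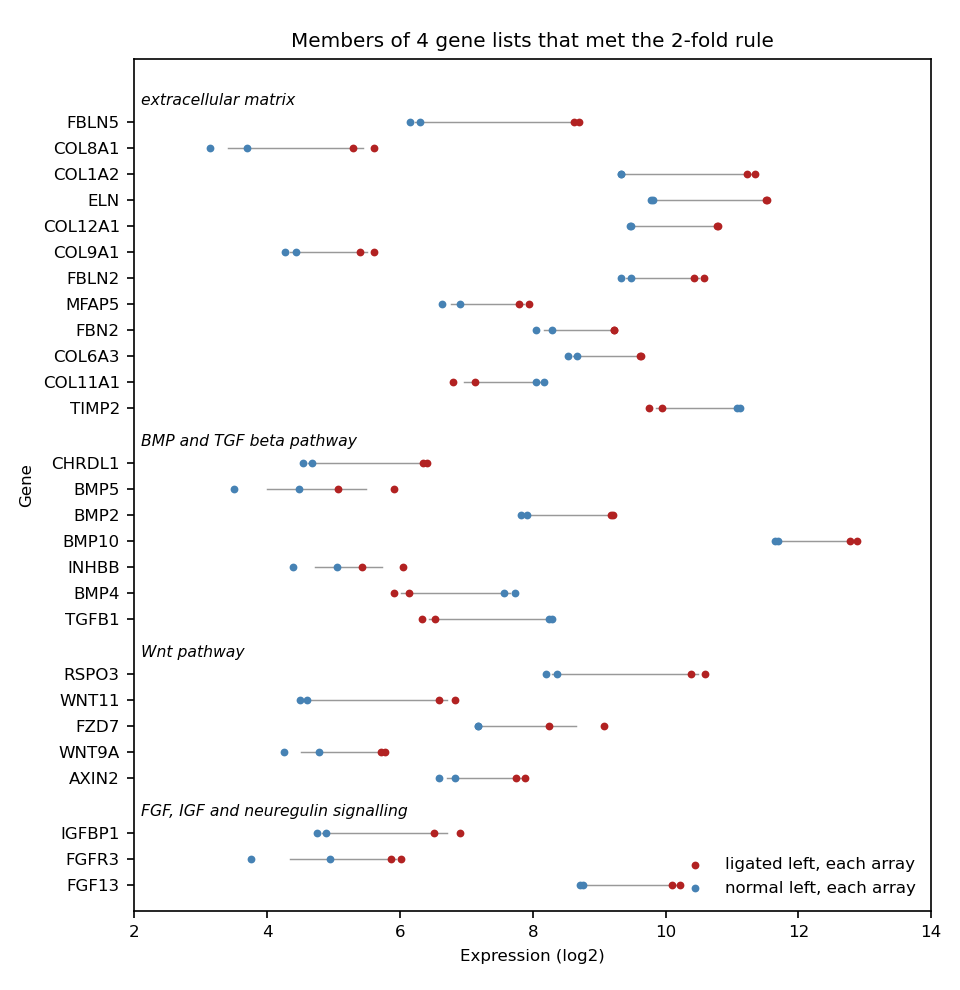
Log2 expression (horizontal axis) on each array of the ligated (red) and normal (blue) left ventricle at E8, for 1 probe set of each gene of 4 lists that met the 2-fold rule; grey lines join the pool means. Most of the genes lie higher in the ligated pool, among them RSPO3, COL1A2 and ELN, while BMP4, TGFB1, TIMP2 and COL11A1 lie lower.

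The contractile genes were among the brightest on the arrays. MYH15, the ventricular myosin heavy chain of the chick, read 15.95 and 15.97 on the ligated arrays, against 16.01 and 16.05 on the normal arrays. MYL2 and MYL3, the ventricular light chains, differed by -0.10 and -0.11, and ACTC1, TNNT2 and TNNC1, which encode cardiac actin and troponins, by -0.05, -0.08 and -0.18. The highest value on the arrays was 16.09, which limits what can be read from these small differences. NPPA, the atrial natriuretic peptide gene and a gene of cardiac load, read 15.02 and 15.14 after ligation, against 15.21 and 15.27 on the normal arrays. MYH7, a slower myosin, was at 12.42 in the ligated pool and 11.94 in the normal pool.

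The sarcomere list had a median of -0.08. Of its 67 kept probe sets, 5 were higher (7.46%, against 2.54% of all kept) and 1 lower (1.49%, against 1.66%). All 5 belonged to TTN, the gene of the giant spring protein titin. Of the 11 kept TTN probe sets, 5 met the rule, such as one at 7.93 in the ligated ventricle and 5.17 in the normal one. All 5 met the rule in the right ventricle too. Of the other 6 kept probe sets, one as dim as those 5 was at 6.68 in the ligated ventricle and 5.75 in the normal one, short of the rule. Another dim one was at 6.06 in the ligated ventricle, with arrays at 5.42 and 6.70, and at 5.67 in the normal one. Brighter probe sets were at 10.35 and 12.03 in the ligated ventricle and at 9.63 and 11.69 in the normal one. The brightest ones were at 14.43 and 14.49 in the ligated ventricle and at 14.64 and 14.63 in the normal one. The kept TTN probe sets therefore disagreed in the size of the difference, and only the brightest ones were lower. Which transcripts each one detects is not known here. LMOD2, which controls the length of thin filaments, was lower by 1.16.

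Other heart genes showed differences below 2-fold. The calcium pump gene ATP2A2 was at 14.53 after ligation and 14.54 without it, its regulator PLN differed by 0.04, and the release channel RYR2 by -0.46 on its brighter probe set. The connexins GJA1 and GJA5 differed by 0.26 and -0.27. KLF2, a gene known to respond to shear stress, was at 11.05 in the ligated left ventricle and 10.55 in the normal one, and EDN1 differed by 0.33. VEGFA differed by 0.34 and HIF1A by 0.00 and -0.14. The proliferation genes MKI67 and CCND2 differed by at most 0.09 in size. Of the cell cycle list, 1 of 73 kept probe sets was higher (1.37%, against 2.54% of all kept), for the mitotic kinesin KIF20A, and none was lower. Its difference was 1.0997, and 0.93 with only the second arrays.

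In the calcium and ion channel list 1 of 46 was higher, CAMK2D by 1.07 (0.88 with only the first arrays), and 1 was lower, CACNB2 by 1.07. This is 2.17% each way, against 2.54% and 1.66% of all kept. In the stretch and shear list 1 of 24 was higher (4.17%, against 2.54% of all kept). It was PTGS2, which encodes an enzyme of prostaglandin synthesis, by 1.02 (0.98 with only the first arrays). No member of the stress and apoptosis list (41) or of the retinoic acid list (18) met the rule, where 4.19% of all kept did.

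In the list of fatty acid and oxidative metabolism the probe sets that met the rule were all lower. OGDH, a subunit of a dehydrogenase of the citric acid cycle, was lower on both of its probe sets, reading 10.48 and 10.51 after ligation, against 12.17 and 12.12 on the normal arrays, on the brighter one. With ACOT9, an acyl-CoA thioesterase, 3 of 36 kept probe sets of that list were lower (8.33%, against 1.66% of all kept). All 3 were also lower by the same rule in the ligated right ventricle, as were 59.6% of all 337 lower probe sets. The median of the list was -0.24, against 0.00 over all kept. Of the glycolysis list, 1 of 29 was higher (3.45%, against 2.54% of all kept), PFKFB3, by 1.14. Of the hypoxia and angiogenesis list, 3 of 53 were higher (5.66%, against 2.54%), 2 of them for P4HA2, a collagen prolyl hydroxylase, and 1 for VEGFD.

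Transcription factors of the heart differed in both directions, 2 of 45 kept probe sets being higher and 2 lower. This is 4.44% each way, against 2.54% and 1.66% of all kept. NR2F2, an atrial and venous factor, read 7.49 and 7.85 after ligation, against 5.62 and 5.69 on the normal arrays. TBX5 met the rule on 1 of 2 kept probe sets, with differences of 1.02 and 0.82, and the first of them fell short of the rule at 0.95 with only the second arrays. It read 9.07 and 9.05 on the ligated arrays and 7.99 and 8.10 on the normal ones. The right ventricle was lower in TBX5 than the left in both states, at 6.69 after ligation and 5.58 without it. HAND1 read 5.03 and 4.72 in the ligated left ventricle, against 7.39 and 7.48 in the normal one, a 5.88-fold difference. The normal pools of all ages lay between 6.21 and 8.31, so that the ligated left level was below each of them. HAND1 also differed between the normal E6 pools, at 6.75 (left) and 6.32 (right) in the single pools and 8.06 in the pool of both. FOXC2 was lower by 1.18, but its difference was -0.40 with only the first arrays and -1.96 with only the second. NKX2-5 and GATA4, core cardiac factors, differed by -0.52 and -0.54, and HAND2 by 0.10.

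Markers of other cell types differed less. The summed level in the ligated left ventricle relative to the normal one was 0.944 for atrial, 0.858 for neural, 0.927 for ventricular, 0.877 for endothelial, 1.03 for epicardial and 0.983 for erythroid markers, and no ventricular, endothelial, epicardial or erythroid probe set met the rule. Of the 5 atrial probe sets 2 were higher, those of NR2F2 and TBX5, and the median difference was 0.82, while the atrial sum is mostly that of the bright NPPA. Of the 4 neural ones, STMN2 was higher by 1.99 (0.16 with the floor at the filter level) and TUBB3 lower by 1.30. The summed level was 1.29 for leukocyte markers, of which the 2 probe sets of SPI1, a macrophage and granulocyte factor, were higher by 1.13 and 1.62, the first of them by 0.72 with only the second arrays. Of 16 kept probe sets of interferon, complement and inflammation genes, 4 were higher (25%, against 2.54% of all kept), with a median of 0.48. They were C1QB and C1R of the complement cascade, IRF8, a factor of macrophage development, and MX1, an interferon response gene. C1QB read 8.15 and 7.96 on the ligated arrays, against 6.33 and 6.48 on the normal arrays. None of the 4 met the rule in the right ventricle, where 31.4% of all 516 higher probe sets did. C1QB, C1R and IRF8 differed there by 0.50, 0.76 and 0.65, but the median over the list was 0.49 there, close to that of the left. For all 4 the normal right ventricle was above the normal left one. IRF8 differed by 0.86 on the left with only the first arrays, and MX1 by 0.14 with the floor at the filter level, both short of the rule. The 4 skeletal muscle markers were below the filter level in every pool. The part of these cells in the differences was not tested.

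The genes with the widest decrease after ligation were of many kinds. ARAP2, a regulator of Arf GTPases, read 5.01 and 5.14 on the ligated arrays, against 8.80 and 8.50 on the normal arrays, and both of its probe sets were lower. PAK4, a kinase that acts on the cytoskeleton, read 4.77 and 5.38 after ligation, against 8.58 and 8.63 on the normal arrays, and was lower on both kept probe sets. DOT1L, a histone methyltransferase, read 3.25 and 2.97 on the ligated arrays, against 6.39 and 6.32 on the normal arrays, but 1 of its 5 kept probe sets met the rule. LOC107052719 had the widest decrease, reading 3.95 and 3.81 on the ligated arrays, against 8.24 and 8.52 on the normal ones. Its normal pools ranged from 3.63 to 9.28, and it was higher by 1.15 in the right ventricle after ligation.

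UFC1, an enzyme of a ubiquitin-like modifier, was at 5.98 in the ligated left ventricle and 9.17 in the normal one. BCKDHA, a subunit of the enzyme complex that degrades branched-chain amino acids, was at 6.52 in the ligated ventricle and 9.48 in the normal one. MAP2K2, a kinase of the MAP kinase cascade, differed by -2.28 on one kept probe set and by -0.53 on the other, brighter one, and CAMK1, a calmodulin-dependent kinase, by -2.27. CCNK, a cyclin of transcription, ERI3, of an exonuclease family, and the zinc finger repressor ZBTB18 differed by -2.86, -2.61 and -2.29. For CCNK and MARF1, an RNA regulator known from the mouse oocyte, 1 of 3 kept probe sets was lower. LOC100859629 differed by -2.36.

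MYL6, the essential myosin light chain of smooth muscle and non-muscle cells, was the brightest of these. It read 10.96 and 10.93 on the ligated arrays, against 13.30 and 13.28 on the normal arrays, a 5.07-fold difference. The normal pools lay between 11.99 and 14.08, all above the ligated left ventricle.

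Many of the lower genes also differed between the E6 pools of single ventricles and the E6 pool of both. PAK4 was at 5.83 (left) and 5.84 (right) in the single E6 pools, and at 9.34 in the pool of both. BCKDHA was at 7.51 and 7.49 in the single pools and 9.68 in the pool of both, and MYL6 at 12.44 and 11.99 in the single pools and 14.08 in the pool of both. At least 2-fold differences of this kind were present for 10 of the 15 genes named as lower. Of all 337 lower probe sets, 101 were among the 233 that were lower in both single E6 pools (30% of the 337 and 43.3% of the 233). ARAP2, at 8.14 and 8.09 in the single E6 pools and 7.37 in the pool of both, was not of this kind. Across the 20335 probe sets the difference after ligation in the left ventricle and the mean single-minus-both difference at E6 had r = 0.135 (Spearman rho 0.214). Those 2 differences have no pool in common. Whether the lower levels share a source was not tested.

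**Figure D4:**
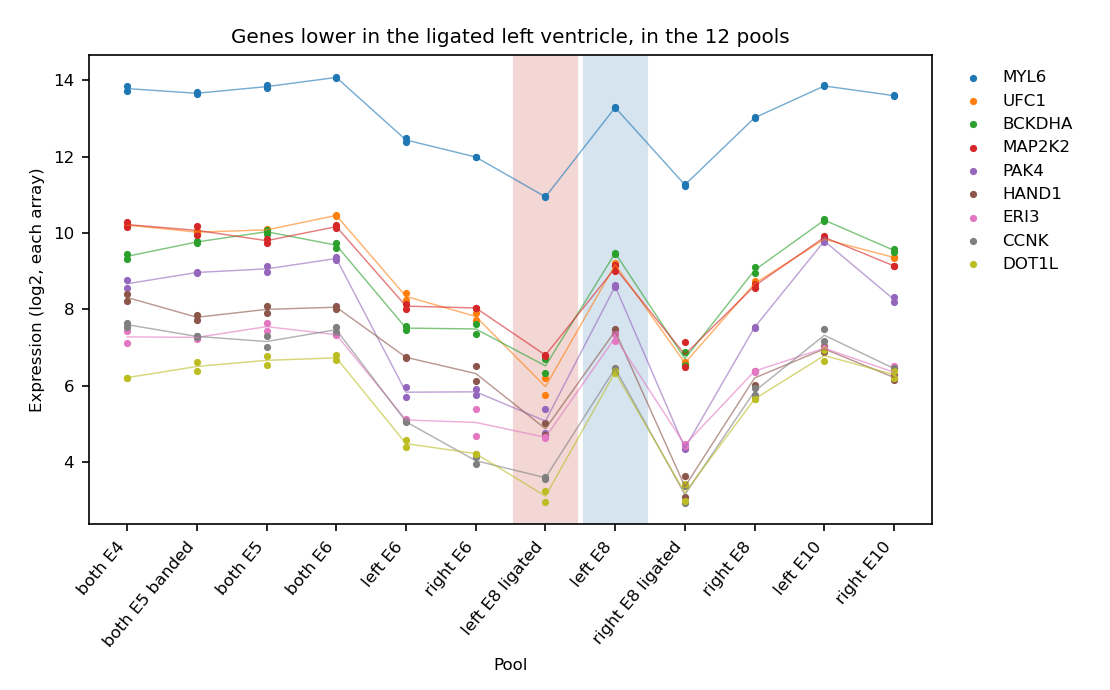
Log2 expression (vertical axis) of 9 genes lower in the ligated left ventricle on each array of the 12 pools; points are arrays, lines join pool means, and shading marks the ligated (red) and normal (blue) left ventricle at E8. The genes are low in both ligated ventricles and most of them, to a smaller degree, in the left and right E6 pools; MYL6 was at 10.95 in the ligated left ventricle and 13.29 in the normal one.

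Set against all normal pools of any age or side, 175 of the 516 higher probe sets lay above every one of them in the ligated left ventricle (33.9%), where 11% of all kept probe sets did. Of the 337 lower probe sets, 228 lay below every normal pool (67.7%), where 14.1% of all kept did. The normal left E8 pool is one of these normal pools, and both sets were chosen by their distance from it. Shares above those of all kept probe sets follow from that choice, so that the counts are a description. Among the 15 genes named as higher, those above every normal pool were ALB, CCN3 and SYNE2. Among the 15 named as lower, 13 lay below every normal pool, all but LOC107052719 and ZBTB18. ZBTB18 was at 5.63 in the ligated left ventricle and 5.61 in the normal left E6 pool.

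The right ventricle of the operated hearts differed from the normal right ventricle in the same direction for most of these probe sets, over separate control pools. In the right ventricle 402 kept probe sets were higher (1.98%) and 446 lower (2.19%) by the same rule. The 2 sides had 162 higher probe sets in common, 31.4% of the left and 40.3% of the right ones, and 201 lower ones, 59.6% of the left and 45.1% of the right. Only 4 probe sets higher in the left were lower in the right, and 3 the other way round. The median difference in the right ventricle was 0.55 over the 516 probe sets higher in the left, and -1.13 over the 337 lower in the left. Over all kept probe sets the 2 differences had r = 0.62 (Spearman rho 0.587).

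Of the 15 genes named as lower, 14 met the rule in the right ventricle too. HAND1 was at 3.36 in the ligated right ventricle and 6.21 in the normal right one, ARAP2 at 4.10 after ligation and 7.61 without it, and PAK4 at 4.37 after ligation and 7.53 without it. Of the 15 named as higher, 8 met the rule on the right side. ALB was at 8.65 in the ligated right ventricle and 4.56 in the normal right one, and SYNE2 at 8.82 after ligation and 4.88 without it. AvBD10 was at 1.66 in the ligated right ventricle and 1.65 in the normal right one, and PRPS2 at 3.48 after ligation and 3.45 without it. TTR differed by 5.98 on the left side and by 0.58 on the right.

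**Figure D5:**
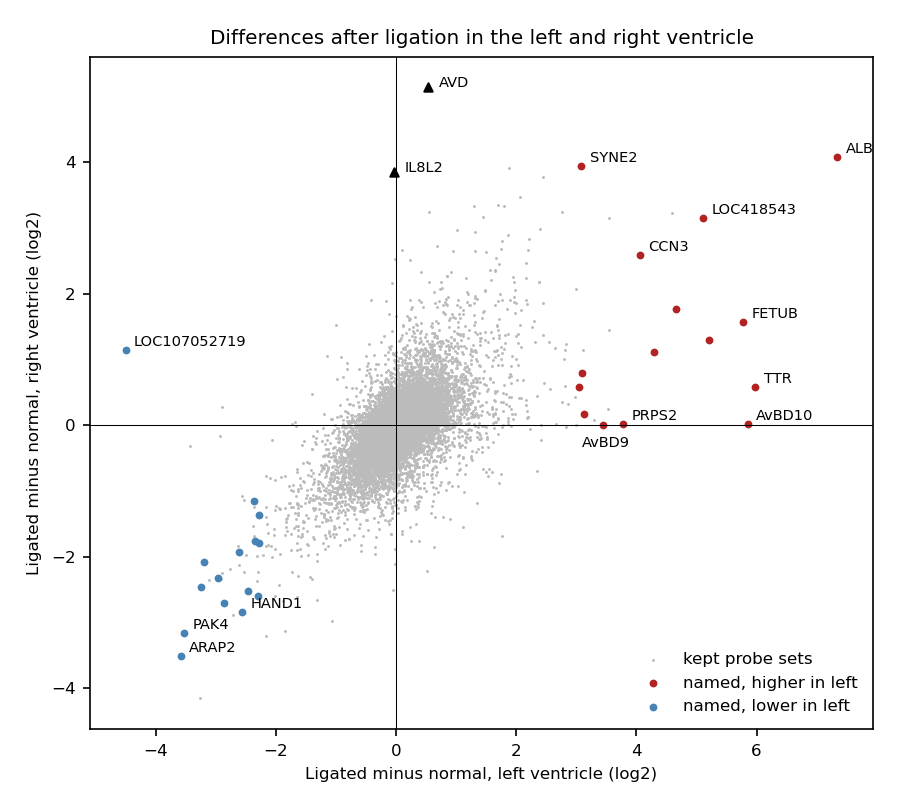
Difference between the ligated and the normal ventricle (log2) of each kept probe set in the right ventricle (vertical axis) against the left ventricle (horizontal axis), each from 1 ligated and 1 normal pool; coloured points are the 30 named genes and triangles mark 2 genes that passed the limma test of a difference between the sides. The lower genes lie low on both axes except LOC107052719, and the higher genes spread from about 0 to 4.09 on the right axis.

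A linear model over the 12 pool means could be fitted with limma, in which the lone ligated pools are assumed to vary like the left-right differences of the other ages and the E6 pools. In that fit 1 probe set passed an adjusted p of 0.05 for ligated against normal left ventricle (0.00492% of those kept), and 1416 had an unadjusted p under 0.05. It was a probe set without a gene name, which read 6.34 and 6.71 on the ligated left arrays, against 1.95 and 1.93 on the normal left arrays. Every normal pool lay below the filter level of 4.09, so that it was kept through the ligated pools alone. The spread the fit borrows is then that of values near the floor, and the p does not measure variation between pools at the level seen after ligation. Its difference was 4.59 ± 0.13 (SE; limma, adjusted p = 0.0055), and it was also at 5.16 in the ligated right ventricle, with all normal pools between 1.91 and 1.96. No probe set passed in limma with the filter at the 70th percentile, where 951 had an unadjusted p under 0.05, and 13 passed without the E6 pool of both ventricles. For the term that compares the left response with the right one, 2 probe sets passed (0.00984%), and 281 had an unadjusted p under 0.05. They belonged to AVD, the gene of avidin, and IL8L2, a chemokine gene, and both were higher in the ligated right ventricle. Both lay below the filter level in every normal pool and were kept through operated pools alone, so that the same limit holds for their p. AVD read 2.68 and 2.999 in the ligated left ventricle, against 2.31 and 2.29 in the normal left, and it was at 7.42 in the ligated right ventricle and 2.28 in the normal right one. The left response was smaller by 4.59 ± 0.17 (SE; limma, adjusted p = 0.0189), and the adjusted p ranged from 0.00354 to 0.0902 over the other settings that tested AVD, the highest being without the E6 pool of both ventricles. IL8L2 read 2.40 and 2.38 in the ligated left ventricle, against 2.44 and 2.41 on the normal arrays, and it was at 6.24 in the ligated right ventricle and 2.39 in the normal right one. Its adjusted p in limma was 0.0242, and it ranged from 0.00507 to 0.100 over the other settings that tested IL8L2, with 0.0709 when the first arrays were left out and the highest without the E6 pool of both ventricles.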

How the data were processed

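RNA from 12 pools of chick embryonic ventricles was measured on 24 one-colour arrays with biotin-labelled cRNA, 2 technical arrays per pool, per the labels' protocols. The authors deposited log2 values, judged to be on that scale from their range and used as they stand. The submitters' processing notes name GCRMA and MAS5; the sources used here give neither their versions nor which one produced these values. The number of pools, 1 for each condition, limits the precision.

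The 96 control probe sets were left out, and the filter level was the 50th percentile of all other values (4.09). The arrays of a pool were averaged, so that n = 1 pool for each condition, and no p-value measures variation between pools of a condition. The limma fit (version 3.58.1, R 4.3.3; lmFit, eBayes, two-sided, Benjamini-Hochberg over 20335 probe sets) had a term for each stage and treatment, side, and side by ligation, and 3 residual degrees of freedom. It was tested on simulated data.

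Genes were named from GEO's platform annotation, checked against RefSeq's gene table (GRCg7b, names only). Of the 38439 probe sets, 27168 had 1 gene, 177 several and 11094 were not listed; of the first, 26853 matched. The 15 genes of the widest increase and decrease were named by the brightest probe set counted, with up to 4 genes a list and direction and a fixed set of heart genes. The members and lists were chosen with earlier results of these data known. The plasma and neuronal lists, and single genes outside the rule (TF, APOB, ELN, AVD, IL8L2, SERPINB2, CA2, MRC1, HPGDS, MSX2, ANGPTL1 and members named from lists), were chosen after their values were seen. NPPB, NOS3 and MYH6 had no entry under these names in the gene table used, and ACTA2, TNC, IGF1 and FGF2 were below the filter.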

Additional observations from a re-analysis of the deposited data

Results flagged for a closer look

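AVD, the gene of avidin, and IL8L2, a chemokine gene, differed between the left and the right ventricle in their response to ligation, by the side by ligation term of the limma fit over 12 pool means. For AVD the left response minus the right response was -4.59 on the log2 scale, and for IL8L2 it was -3.86. For AVD the conotruncally banded E5 pool was high as well, at 8.01, against 2.27 in the normal E5 pool, and all normal pools lay between 2.27 and 2.32. For IL8L2 the 2 arrays of the ligated right ventricle read 6.69 and 5.78, and all normal pools lay between 2.37 and 2.45. All these normal levels lie below the filter level, so that the spread the fit borrows for both genes is that of values near the floor. Each ligated side was 1 pool, so that a difference between pools and one between sides cannot be told apart.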

How the results depend on the processing

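The 30 genes named for the widest differences met the 2-fold rule in all 5 other settings in which single genes were followed, and none turned its direction there. These were quantile normalization, median centring, the floor, and leaving out the first or the second arrays. The 30 genes were chosen for the widest differences between the same pools, and that choice favours this outcome, so that it is a description. The named genes were not followed with the filter at the 70th percentile, which leaves out dim probe sets. Small differences that did not meet the rule changed sign in some, for ACTC1 (-0.0955 to 0.0203), PLN (-0.0205 to 0.1105), ATP2A2 (-0.0558 to 0.0383) and HIF1A (-0.0624 to 0.0567). Of 135 counted probe sets of the named genes and lists, none changed direction, 10 fell short of the rule with the floor at the filter level, 7 and 12 without 1 array of each pool, 4 under quantile normalization and 7 under median centring. The 853 probe sets counted became 392 (212 higher, 180 lower) with the filter at the 70th percentile, 2479 at 1.5-fold and 133 at 4-fold. Under the other settings the count lay between 699, without the probe sets that differed between the kinds of E6 pool (466 higher, 233 lower), and 983. Leaving out 1 array of each pool gave 906 and 983, quantile normalization 847, median centring 842 and a floor at the filter level 737. The 403 probe sets outside every normal pool became 194 with the filter at the 70th percentile and otherwise 361 to 473. The limma fit of the left difference called 1 probe set, against 12 with no filter, 0 at the 70th percentile (951 at an unadjusted p under 0.05), 2 under quantile normalization, 1 and 2 without 1 array of each pool and 13 (11 higher, 2 lower) without the E6 pool of both ventricles. The side by ligation term called 2, against 3 with no filter, 0 at the 70th percentile (123 unadjusted), 1 with a variance trend, 1 and 2 without 1 array of each pool, and 0 without the E6 pool of both ventricles (400 unadjusted), where AVD had an adjusted p of 0.0902. The causes were not tested, except that stricter filters test fewer probe sets. The settings that leave out probe sets by their E6 levels were chosen after seeing the data. Below the filter level the signal limits what can be read from the size of a difference. No paired analysis was possible because the shared numbers are technical arrays of 1 pool, which were averaged before the fit, and the 2-fold counts come from no test.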

Other observations

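Neuronal genes were among those higher after ligation. A list drawn up after the values were seen had 26 kept probe sets. Of these, 11 were higher in the ligated left ventricle (42.3%, where 2.54% of all kept probe sets were), for 9 genes. Only 1 was lower (3.85%, where 1.66% of all were), and the median difference was 0.73. The list was chosen from these values, so that the count is a description. SNAP25, a protein of synaptic vesicle release, was higher on 3 probe sets, and a further kept one differed by 0.01. The brightest of the 3 read 9.17 and 8.89 on the ligated arrays, against 6.93 and 7.28 on the normal arrays. DCX, a microtubule protein of young neurons, was at 8.98 in the ligated left ventricle and 7.39 in the normal one, and the neurofilament gene NEFM at 8.61 after ligation and 7.10 without it. TUBB3, the neuronal tubulin, was lower by 1.30. On the shorter list of neural markers, 1 of 4 kept probe sets was higher and 1 lower, and the summed level was 0.858 times the normal one. None of the 11 lay above every normal pool, where 33.9% of all 516 higher probe sets did. In the right ventricle SNAP25 was at 9.58 after ligation and 8.84 without it. For 10 of the 11 the normal right ventricle was above the normal left one. These 11 were chosen by their distance from the normal left E8 pool, which favours such a count.

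Single genes outside the lists, chosen after their values were seen, differed as well. CA2, a carbonic anhydrase, read 12.46 on both ligated arrays, against 9.99 and 10.03 on the normal arrays, and no normal pool exceeded 10.98. The limma estimate of the difference, over the 12 pool means, was 2.51 ± 0.17 (SE; adjusted p = 0.0810). In the right ventricle CA2 differed by 1.86. SERPINB2, a protease inhibitor, was higher on 3 probe sets, by 1.66 to 2.39 (one of them by 0.78 with the floor at the filter level), and by 2.24 to 2.98 in the right ventricle. HPGDS, a prostaglandin synthase, was higher by 2.999 and 2.06 on its 2 probe sets, and by 2.07 and 1.52 in the right ventricle. On the brighter one the ligated left level, 8.28, lay below the normal E6 pool of both ventricles, at 8.45. The ligated left level of the other lay above every normal pool. MRC1, a macrophage mannose receptor, was at 8.02 in the ligated left ventricle and 5.67 in the normal one. In the right ventricle MRC1 differed by 0.44, and the normal E4 pool, at 8.27, exceeded the ligated left level of MRC1. MSX2, a homeobox factor, was higher by 2.35 in the left ventricle and lower by 0.69 in the right one. MSX2 was at 6.54 in the ligated left ventricle, 4.18 in the normal left one and 7.05 in the normal right one. Its normal pools ranged from 3.94 to 7.44. For both MRC1 and MSX2 the normal right ventricle was above the normal left one. ANGPTL1 was at 8.91 in the ligated left ventricle and 6.05 in the normal one, and at 9.69 in the ligated right ventricle and 9.36 in the normal right one.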
